A study of Mus musculus with 7 samples.

Results

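RNA of mouse neural cells exposed to chlorpyrifos for 1 day was compared with RNA of unexposed control cells, 1 library each, out of 7 libraries in the study. Both came from wild type B6G-2 embryonic stem cells, which were kept as embryoid bodies for 6 days and then expanded as neural progenitors with bFGF and EGF. At day 14 the progenitors were moved to BrainPhys with B27 for differentiation. The remaining 5 libraries were exposed in the same way to DDT, rotenone, carbaryl, deltamethrin or imidacloprid. Neither a dose nor a vehicle is given in the labels. They call the tissue brain, while the protocol describes cultured derivatives of 1 stem cell line. The series title names glial differentiation as the readout of interest for insecticide toxicity.

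Chlorpyrifos is an organophosphate insecticide. Cells convert it to chlorpyrifos oxon, which binds the active site serine of acetylcholinesterase, the enzyme that breaks down acetylcholine, and of other serine hydrolases. Paraoxonases and glutathione transferases take part in its removal.

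Each library lists transcript-structure events, such as a transcript start, a transcript end, an exon that is skipped or kept, and an intron that is retained or removed. Each event carries the summed FPKM (fragments per kilobase of transcript, scaled to library size) of the transcripts that hold it. The chlorpyrifos library held 91272 distinct events, the other exposed libraries 90522 to 92229 and the control library 90960. No read counts are in the files used, so the depth is unknown. A gene's level was the mean of its summed starts and its summed ends. Of 13641 genes with such an event, 6299 had agreeing start and end totals and averaged 1 FPKM or more across all 7. Folds could be given for 6270 of them, as differences of log2(FPKM + 1), chlorpyrifos minus control. That scale understates the change of low genes. Since each group is 1 library, no difference was checked against replicates and none is tested. The 5 other exposed libraries show how far single libraries differ here. Each was compared with the same control library, so those comparisons are not independent of each other. In these bulk samples fewer cells of a type and less RNA per cell cannot be told apart.

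The cells carried RNA of genes of neural progenitors and young neurons, and of some astrocyte markers. Among the latter, Aldoc stood at 72.6 FPKM with chlorpyrifos and 80.2 FPKM in control, while Gfap, Aqp4 and S100b averaged under 1 FPKM. The intermediate filament gene Vim stood at 1221 FPKM with chlorpyrifos, at 987 to 1211 FPKM in the other exposed libraries and at 1062 FPKM in control. The neuronal growth cone gene Gap43 stood at 195 FPKM with chlorpyrifos, at 153 to 187 FPKM in the other exposed libraries and at 180 FPKM in control. Of 8 microglia and blood markers 7 had no start or end event. The same held for Hspa8 and Eif4a2, which cells use in general, so a missing event does not show that a gene was silent. Pou5f1 and Nanog were listed at 0 with chlorpyrifos and in control.

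Over all genes the chlorpyrifos and control libraries were close. The median log2 fold was -0.0001, the SD over genes was 0.31, and 94.1% of the genes lay within 1.5-fold. At 2-fold or more stood 101 genes, 1.61% of those compared, with 46 higher (0.734%) and 55 lower (0.877%) with chlorpyrifos. The other exposed libraries had 44 to 55 genes higher and 53 to 81 lower than the same control. Of the 46 higher genes, 26 lay within the range of the 5 other exposed libraries, and in 28 the control library was the lowest of the 7. Chlorpyrifos was above all 6 others in 16 of these 46. Of the 55 lower genes, 16 lay within that range, and in 39 the chlorpyrifos library was below all 6 others. Control was the highest of the 7 in 20 of these 55.

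Single events differed more often than whole genes. Of 56275 events listed in both libraries with a mean of at least 1 FPKM, 6452 differed 2-fold or more (11.5%), 3153 higher and 3299 lower with chlorpyrifos. In the other exposed libraries the share was 11.31% to 11.84%. Transcript ends differed least often, at 5.48%, and transcript starts in 12.2%. Single skipped exons differed in 10.6% of the events with the exon present and in 12.6% of those with it absent. Alternative exon ends stood at 10.6%. Several exons skipped together differed in 12.8% of the events with the exons present and in 19.9% of those with them absent. Retained introns differed in 21.0% of the events with the intron present and in 8.62% of those with it absent. The other exposed libraries had 18.27% to 20.72% and 8.16% to 9.55% of these. Among events with inexact ends the share ran between 12.2% for alternative exon ends and 32.3% of 133 events for several introns retained together with the introns absent.

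**Figure D1:**
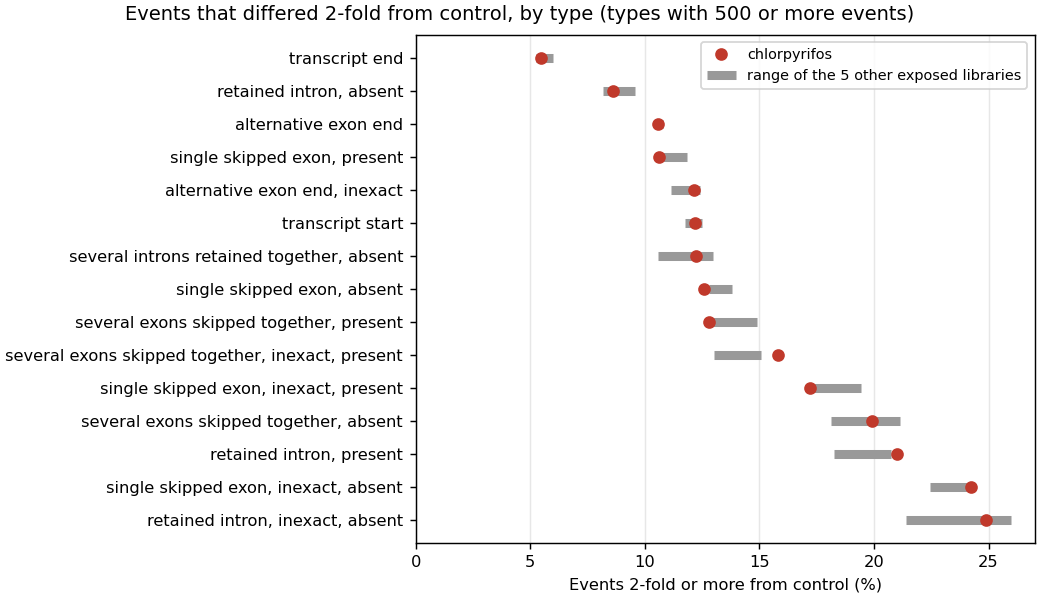
Share of events (x axis, percent) that differed 2-fold or more from control, by event type (y axis, types with at least 500 events listed in both libraries); the point is chlorpyrifos and the bar the range of the 5 other exposed libraries. Transcript ends are lowest at 5.48% with chlorpyrifos, and the chlorpyrifos point lies in the bar or within 1 percentage point of it for each type shown.

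A few genes stood apart from every other library, and more of them were low than high with chlorpyrifos. At least 2-fold beyond all 6 other libraries were 9 genes, 0.143% of 6299, with 2 above and 7 below. The same count was 2 to 4 above and 9 to 18 below for each of the other exposed libraries, and 1 above and 16 below for control. The genes above were the zinc transporter gene Slc39a3 and the pseudogene Hmgn2-ps1, both outside the rule for named genes. Slc39a3 stood at 6.51 FPKM with chlorpyrifos, at 1.80 FPKM with DDT, 2.02 with rotenone, 1.05 with carbaryl, 2.73 with deltamethrin and 1.17 with imidacloprid, and at 1.21 FPKM in control (log2 fold 1.76). Hmgn2-ps1 was listed at 20.9 FPKM with chlorpyrifos and at 0 in the other 6 libraries.

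Bex1 is an X-linked adaptor gene expressed in the nervous system (chromosome X, 136213972 to 136215513, minus strand, GRCm38). It stood at 1.32 FPKM with chlorpyrifos, at 15.4 FPKM with DDT, 28.8 with rotenone, 24.7 with carbaryl, 15.8 with deltamethrin and 28.3 with imidacloprid, and at 26.4 FPKM in control (log2 fold -3.56). The chlorpyrifos library was by far the lowest, and the other exposed libraries lay on both sides of control, with DDT and deltamethrin clearly below it. The gene has 1 listed start and 1 listed end, with the same value. Its family members were near control, with Bex3 at 146.8 FPKM with chlorpyrifos against 138.2 FPKM in control and Bex4 at 35.6 FPKM against 38.1 FPKM. Of 11 genes of the Bex and Tceal family 8 could be used, with 3 higher and 5 lower and a median log2 fold of -0.06.

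Eif4b encodes a cofactor of the RNA helicase of translation initiation (chromosome 15, 102073773 to 102097173, plus strand). It stood at 25.7 FPKM with chlorpyrifos, at 90.2 FPKM with DDT, 92.9 with rotenone, 85.1 with carbaryl, 90.8 with deltamethrin and 88.6 with imidacloprid, and at 89.4 FPKM in control (log2 fold -1.76). The 6 other libraries lay close together, and chlorpyrifos stood far below them. Its 2 totals did not agree in that library, with 30.8 FPKM over the starts and 20.7 FPKM over the end events. A start that was not matched to an annotated first exon of Eif4b, at 102074546 to 102074639, was listed at 2.58 FPKM with chlorpyrifos. It was listed at 0 in the other 6 libraries.

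Tardbp encodes the RNA-binding protein TDP-43, which acts in splicing and RNA transport (chromosome 4, 148612382 to 148627019, minus strand). It stood at 22.4 FPKM with chlorpyrifos, at 117.4 FPKM with DDT, 82.0 with rotenone, 92.3 with carbaryl, 60.1 with deltamethrin and 132 with imidacloprid, and at 119 FPKM in control (log2 fold -2.36). Some of its starts and ends were low with chlorpyrifos and others were not. The end at 148616725 to 148616844 was listed at 0.48 FPKM with chlorpyrifos, at 45.0 to 105.04 FPKM in the other exposed libraries and at 102.8 FPKM in control. The end at 148617451 to 148617705 was listed at 20.6 FPKM with chlorpyrifos, at 0.47 to 25.2 FPKM in the other exposed libraries and at 18.2 FPKM in control. That second end made up 97.6% of the gene's end total with chlorpyrifos and 15.0% in control. Among the starts, the one at 148621949 to 148621990 held 21.9 FPKM with chlorpyrifos, 17.8 to 47.1 FPKM with the other insecticides and 44.9 FPKM in control. The one at 148619184 to 148619276 held 0.16 FPKM with chlorpyrifos, 1.78 FPKM with deltamethrin, 21.4 to 105.03 FPKM with the remaining insecticides and 37.6 FPKM in control. The first start was thus lower with imidacloprid than with chlorpyrifos, and the second was also low with deltamethrin. Another start, at 148626681 to 148626996, was near 0 only with chlorpyrifos. It held 0.016 FPKM there, 6.57 to 37.05 FPKM with the other insecticides and 34.3 FPKM in control.

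Esd encodes esterase D, a serine hydrolase of the glutathione-dependent formaldehyde pathway (chromosome 14, 74732297 to 74750765, plus strand). It stood at 10.2 FPKM with chlorpyrifos, at 68.8 FPKM with DDT, 38.7 with rotenone, 24.8 with carbaryl, 67.1 with deltamethrin and 42.1 with imidacloprid, and at 46.5 FPKM in control (log2 fold -2.09). The other exposed libraries spread widely here, and the chlorpyrifos value was below the lowest of them. The start whose first exon ends at 74732521 was listed at 7.32 FPKM with chlorpyrifos and 37.9 FPKM in control. The start whose first exon ends at 74732388 was listed at 4.07 FPKM with chlorpyrifos and 3.66 FPKM in control.

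Exoc7, a subunit of the exocyst that tethers secretory vesicles, stood at 5.19 FPKM with chlorpyrifos, at 14.8 to 21.6 FPKM in the other exposed libraries and at 19.6 FPKM in control (log2 fold -1.74). Dtx2, a ubiquitin ligase that regulates Notch signalling, stood at 1.23 FPKM with chlorpyrifos, at 4.48 to 7.64 FPKM in the other exposed libraries and at 7.49 FPKM in control (log2 fold -1.93). Lix1l stood at 14.1 FPKM with chlorpyrifos, at 30.3 to 36.1 FPKM in the other exposed libraries and at 31.5 FPKM in control (log2 fold -1.10). In all 3 genes the chlorpyrifos library was the lowest, and its start and end totals were close to each other. The next lowest were DDT for Exoc7 and carbaryl for Dtx2, both below control.

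**Figure D2:**
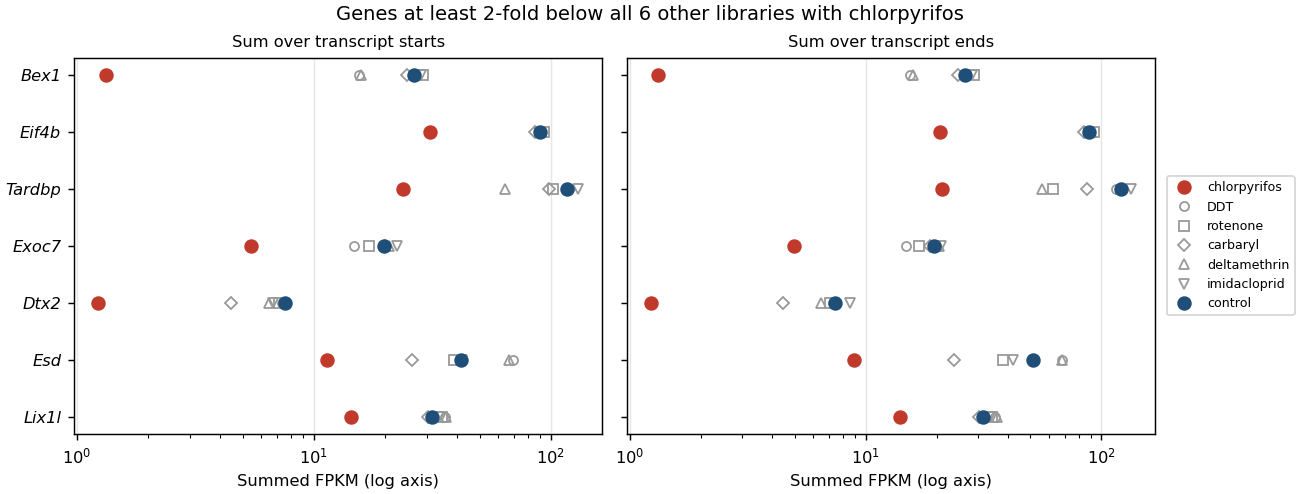
Summed FPKM of the transcript starts (left) and transcript ends (right), on log axes, of the 7 named genes at least 2-fold below all 6 other libraries with chlorpyrifos; each symbol is 1 library. Chlorpyrifos is the leftmost symbol for each gene in both panels, from 1.23 FPKM for Dtx2 to 30.8 FPKM for the starts of Eif4b.

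At the smaller size of 1.5-fold, 41 genes stood beyond all 6 other libraries with chlorpyrifos, 0.651% of 6299, with 8 above and 33 below. The other exposed libraries had 5 to 11 above and 38 to 49 below, and control 3 above and 34 below. The following 4 were chosen after their values were seen. Anp32e, a histone chaperone gene, stood at 124.6 FPKM with chlorpyrifos, at 217 to 226 FPKM in the other exposed libraries and at 229 FPKM in control (-0.87). Ctps, which makes CTP, stood at 12.6 FPKM with chlorpyrifos, at 23.0 to 32.0 FPKM in the other exposed libraries and at 25.6 FPKM in control (-0.97). Above stood Cdk5r1, the p35 activator of the neuronal kinase Cdk5, at 9.95 FPKM with chlorpyrifos, at 3.43 to 4.55 FPKM in the other exposed libraries and at 4.47 FPKM in control (1.00). Lsm4, of the ring that binds U6 RNA, stood at 126 FPKM with chlorpyrifos, at 53.3 to 70.9 FPKM in the other exposed libraries and at 66.2 FPKM in control (0.92).

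The other genes with low folds were low in some other exposed libraries too. Of the 12 lowest named folds, 8 had chlorpyrifos below all 6 other libraries and 4 lay within the range of the other exposed libraries. Stard4, a cholesterol transfer protein, stood at 3.64 FPKM with chlorpyrifos, at 16.5 FPKM with DDT, 7.55 with rotenone, 20.2 with carbaryl, 4.72 with deltamethrin and 4.13 with imidacloprid, and at 20.5 FPKM in control (-2.22). Pkig, an inhibitor of protein kinase A, stood at 6.39 FPKM with chlorpyrifos, at 8.44 to 33.7 FPKM in the other exposed libraries and at 30.03 FPKM in control (-2.07). For both genes, deltamethrin or imidacloprid came close to the chlorpyrifos level. The noncoding RNA Tug1 stood at 3.03 FPKM with chlorpyrifos, at 2.34 to 21.1 FPKM in the other exposed libraries and at 12.9 FPKM in control (-1.79). The phosphodiesterase Pde1b stood at 2.25 FPKM with chlorpyrifos, at 2.15 to 9.05 FPKM in the other exposed libraries and at 8.94 FPKM in control (-1.61). The chromatin regulators Brwd1 (5.88 FPKM with chlorpyrifos, 19.0 FPKM in control, -1.54) and Kmt2d (3.46 FPKM with chlorpyrifos, 10.9 FPKM in control, -1.42) lay among the other exposed libraries, which had 5.64 to 18.8 FPKM for Brwd1 and 2.89 to 7.77 FPKM for Kmt2d.

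The highest folds came mostly with a control library that stood below all exposed ones. Of the 12 highest named folds, 9 lay within the range of the other exposed libraries, and in 8 control was the lowest of the 7. Syt1, the calcium sensor of synaptic vesicle release, stood at 11.5 FPKM with chlorpyrifos, at 12.9 FPKM with DDT, 12.3 with rotenone, 12.9 with carbaryl, 14.7 with deltamethrin and 12.4 with imidacloprid, and at 3.07 FPKM in control (1.61). The 6 exposed libraries were alike, and control stood apart from them. Nipa2, a magnesium transporter, stood at 10.9 FPKM with chlorpyrifos, at 10.4 to 13.3 FPKM in the other exposed libraries and at 2.06 FPKM in control (1.96). Hras, a small GTPase, stood at 39.7 FPKM with chlorpyrifos, at 40.0 to 44.0 FPKM in the other exposed libraries and at 13.5 FPKM in control (1.49). Sar1a, a small GTPase of vesicle export from the endoplasmic reticulum, stood at 54.6 FPKM with chlorpyrifos, at 45.7 to 59.0 FPKM in the other exposed libraries and at 19.2 FPKM in control (1.46). Against the median of the 5 other exposed libraries the log2 folds of these 4 genes were -0.15 (Syt1), -0.11 (Nipa2), -0.10 (Hras) and 0.01 (Sar1a). Mzt2, a component of the gamma-tubulin complex, was the only one of the 12 with chlorpyrifos highest of the 7, at 18.8 FPKM, against 14.9 to 17.9 FPKM in the other exposed libraries and 3.84 FPKM in control (2.04).

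Others of the 12 were low in an exposed library as well. Rsrc1, a splicing-related gene, stood at 12.5 FPKM with chlorpyrifos, at 2.39 FPKM with carbaryl, at 11.1 to 13.6 FPKM in the remaining exposed libraries and at 2.44 FPKM in control (1.97). Cacybp, a gene of ubiquitin-mediated turnover, stood at 73.1 FPKM with chlorpyrifos, at 23.0 FPKM with carbaryl, at 69.9 to 75.6 FPKM in the remaining exposed libraries and at 27.6 FPKM in control (1.37). Rsrc1 and Cacybp thus each took 2 levels over the libraries, with carbaryl and control at the low one. Abi2, an actin regulator of the WAVE complex, stood at 15.7 FPKM with chlorpyrifos, at 26.7 FPKM with DDT, 4.36 with rotenone, 45.6 with carbaryl, 5.26 with deltamethrin and 6.82 with imidacloprid, and at 4.41 FPKM in control (1.62). The asparaginyl-tRNA synthetase Nars stood at 67.9 FPKM with chlorpyrifos, at 12.7 FPKM with deltamethrin and at 21.2 FPKM in control. For the genes of the 12 not yet named, control was again the lowest library. They were Lgalsl (9.24 FPKM with chlorpyrifos, 2.01 FPKM in control), the actin capping gene Capza2 (66.1 FPKM and 21.6 FPKM) and Commd6 (13.3 FPKM and 3.87 FPKM).

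**Figure D3:**
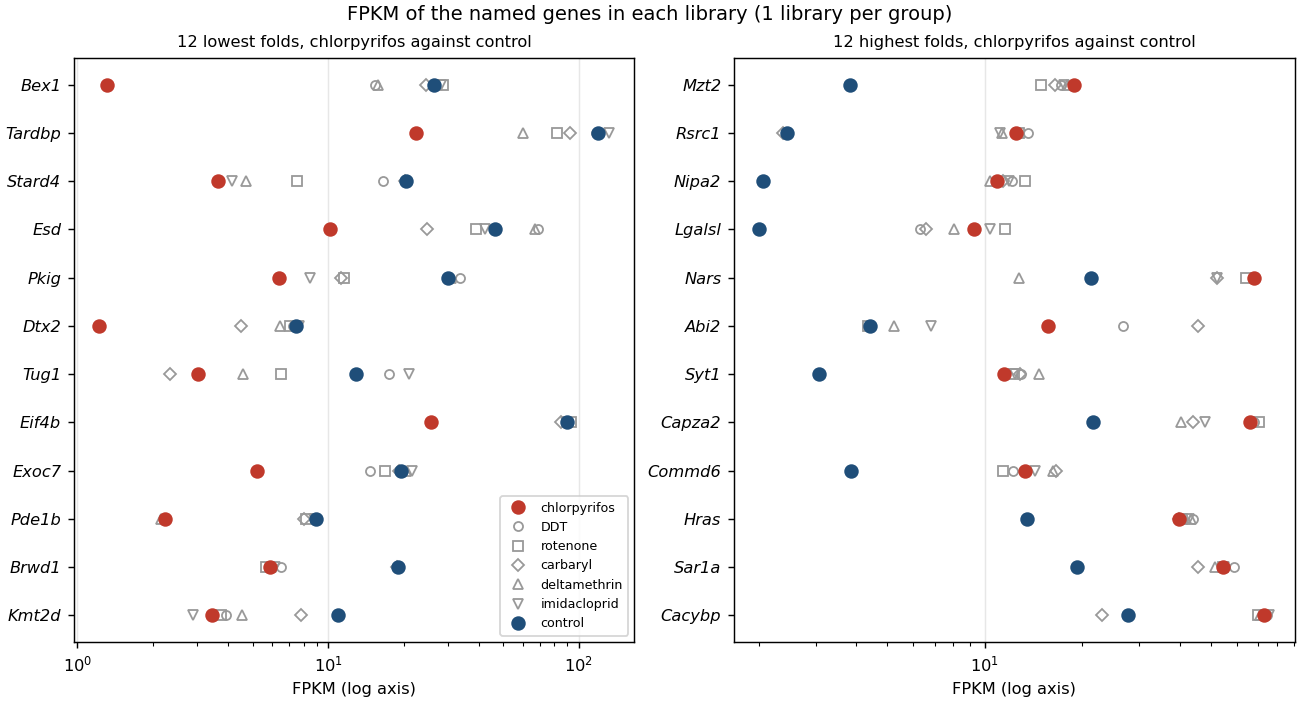
FPKM on log axes of the 12 lowest (left) and 12 highest (right) named folds of chlorpyrifos against control, with 1 symbol per library. On the left Bex1, Eif4b and Dtx2 have chlorpyrifos apart from all others, and on the right control is the lowest symbol in 8 of the 12 genes.

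Serine hydrolases, the enzyme class of acetylcholinesterase, differed little in most members that could be used. Esd, the member at 2-fold, is listed for that class, and whether chlorpyrifos acts on it was not tested. Members of this list and of those below were chosen with earlier results of these data known. Ache, acetylcholinesterase, had a mean start total of 1.07 FPKM and a mean end total of 0.897 FPKM over the 7 libraries. Its start total was 1.59 FPKM with chlorpyrifos, 0.319 FPKM with DDT, 0.652 with rotenone, 0.727 with carbaryl, 1.06 with deltamethrin and 2.04 with imidacloprid, and 1.10 FPKM in control. These low values overlapped, with imidacloprid the highest and DDT the lowest. Bche, the related butyrylcholinesterase, stood at 3.67 FPKM with chlorpyrifos, at 1.38 to 3.99 FPKM in the other exposed libraries and at 3.26 FPKM in control (0.13). Of 21 serine hydrolases 10 could be used, with 6 higher and 4 lower and a median of 0.03, beside 50.0% higher over all genes. Esd was the 1 member at 2-fold. The lysosomal thioesterase Ppt1 (19.6 FPKM with chlorpyrifos, 22.4 FPKM in control, -0.18) and the lipases Abhd6 (8.07 FPKM and 7.17 FPKM, 0.15) and Abhd12 (20.8 FPKM and 22.95 FPKM, -0.14) were nearer.

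Of 23 cholinergic genes 4 could be used, and 10 had no start or end event, among them Chat, which makes acetylcholine. The receptor subunit gene Chrna7 stood at 2.72 FPKM with chlorpyrifos, at 1.74 to 2.62 FPKM in the other exposed libraries and at 2.12 FPKM in control (0.25). Its chaperone Ric3 had a log2 fold of -0.17 and the receptor modulator Lynx1 one of 0.15. Of 23 detoxification genes 6 could be used, with 5 higher and 1 lower and a median of 0.09. The glutathione transferase Gstm7 stood at 14.1 FPKM with chlorpyrifos, at 14.3 to 27.2 FPKM in the other exposed libraries and at 21.8 FPKM in control (-0.60), with DDT about as low as chlorpyrifos. The paraoxonase Pon2 stood at 15.7 FPKM with chlorpyrifos, at 14.3 to 17.2 FPKM in the other exposed libraries and at 11.8 FPKM in control (0.39), with control the lowest of the 7.

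Genes of the integrated stress response, the ATF4 program that runs when translation is slowed, had the highest median with chlorpyrifos among the lists with at least 5 used members, 0.25. Of 24 genes 13 could be used and all 13 were higher than control, beside 50.0% over all genes. None of the 13 was highest of the 7 with chlorpyrifos, beside 13.0% over all genes. The same median against the same control was 0.48 with DDT, 0.31 with rotenone, -0.06 with carbaryl, 0.16 with deltamethrin and -0.003 with imidacloprid. Against the median of the 5 other exposed libraries, 9 of the 13 were higher with chlorpyrifos, beside 48.9% over all genes, with a median of 0.07. The pseudokinase Trib3 stood at 1.95 FPKM with chlorpyrifos, at 0.427 to 2.18 FPKM in the other exposed libraries and at 0.656 FPKM in control (0.83). Sesn2, which restrains mTORC1, stood at 30.9 FPKM with chlorpyrifos, at 25.9 to 34.7 FPKM in the other exposed libraries and at 24.5 FPKM in control (0.32). The asparagine synthetase Asns stood at 39.5 FPKM with chlorpyrifos, at 32.8 to 53.6 FPKM in the other exposed libraries and at 32.8 FPKM in control (0.26). Atf4 itself was at 110.2 FPKM with chlorpyrifos and 101.6 FPKM in control (0.12).

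Of 19 p53 targets 10 could be used, 8 higher and 2 lower with a median of 0.20, beside 50.0% higher over all genes. In 4 of the 10 chlorpyrifos was the highest of the 7, beside 13.0% over all genes. These 4 were Ccng1, Rrm2b, Tnfrsf10b and Plk2, which exceeded the next library by 0.0023 (Ccng1) to 0.0984 (Plk2) on the log2 scale. The medians of the other exposed libraries were 0.04 to 0.15. The cell cycle inhibitor Cdkn1a stood at 79.2 FPKM with chlorpyrifos, at 62.8 to 79.6 FPKM in the other exposed libraries and at 61.0 FPKM in control (0.37). The kinase Plk2 stood at 37.2 FPKM with chlorpyrifos, at 26.1 to 34.6 FPKM in the other exposed libraries and at 31.7 FPKM in control (0.22). The death receptor Tnfrsf10b stood at 4.12 FPKM with chlorpyrifos, at 2.43 to 3.87 FPKM in the other exposed libraries and at 3.43 FPKM in control (0.21). The receptor Eda2r went the other way, at 2.01 FPKM with chlorpyrifos, 1.47 to 6.11 FPKM in the other exposed libraries and 5.32 FPKM in control (-1.07). Mdm2, the ubiquitin ligase of p53, had ends that disagreed and was not given a fold.

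RNA-binding proteins of splicing had the lowest list median, -0.23. The list holds Tardbp, already named for its low value, and was written with earlier results of these data known. Its counts are therefore a description and not separate support. Of 24 genes 10 could be used and all 10 were lower than control, beside 50.0% higher over all genes, and 2 had chlorpyrifos lowest of the 7, beside 14.0%. The medians of the other exposed libraries were -0.19 to -0.05 against the same control. Against the median of those 5 libraries, 3 of the 10 were higher with chlorpyrifos, beside 48.9% over all genes, and the median was -0.10. Beside Tardbp, Hnrnpc stood at 93.6 FPKM with chlorpyrifos, at 105.1 to 160.4 FPKM in the other exposed libraries and at 162 FPKM in control (-0.79). Hnrnpk stood at 180 FPKM with chlorpyrifos, at 179.7 to 372 FPKM in the other exposed libraries and at 302.9 FPKM in control (-0.75), with deltamethrin as low as chlorpyrifos. Qk had a log2 fold of -0.34 and Rbfox2 one of -0.32, while Elavl1 (-0.05), Srsf1 (-0.04) and Nova2 (-0.0008) were close to control.

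Of 26 initiation factors of translation 17 could be used, 7 higher and 10 lower with a median of -0.03. Next to Eif4b, Eif3e stood at 63.4 FPKM with chlorpyrifos, at 87.6 to 122 FPKM in the other exposed libraries and at 121.6 FPKM in control (-0.93). Eif2b1 stood at 21.0 FPKM with chlorpyrifos, at 23.0 to 25.9 FPKM in the other exposed libraries and at 25.1 FPKM in control (-0.25). Chlorpyrifos was the lowest of the 7 in these 3 genes and in Eif5b, 4 members of the 17, beside 14.0% over all genes. Eif4b had already been named for its low value, and the list was written with earlier results known. The count is therefore a description and not separate support. Eif5b was below the next library by a log2 difference of -0.0085.

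Sterol genes had 4 higher and 9 lower of 13 used, out of 25, with a median of -0.06, beside -0.36 with DDT and between 0.01 and 0.04 with each of the 4 remaining insecticides. The sterol oxidase Msmo1 stood at 39.5 FPKM with chlorpyrifos, at 42.1 FPKM with DDT, 85.5 with rotenone, 89.9 with carbaryl, 73.8 with deltamethrin and 75.6 with imidacloprid, and at 100.4 FPKM in control (-1.33). Chlorpyrifos and DDT were low for this gene. Acat2, at 81.5 FPKM with chlorpyrifos, 51.6 to 102.9 FPKM in the other exposed libraries and 99.7 FPKM in control (-0.29), and Insig1, at 78.0 FPKM with chlorpyrifos, 66.0 to 97.5 FPKM in the other exposed libraries and 83.6 FPKM in control (-0.10), stayed nearer to control.

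Immediate early genes had 8 of 8 used members higher, out of 18, beside 50.0% over all genes. Their median was 0.14 with chlorpyrifos, with medians of 0.07 to 0.29 in the other exposed libraries and no member with chlorpyrifos highest of the 7. Fos stood at 3.63 FPKM with chlorpyrifos, at 2.53 to 4.74 FPKM in the other exposed libraries and at 2.66 FPKM in control (0.34). Further medians with chlorpyrifos were within 0.1 of 0. They were 0.03 for 15 of 19 NRF2 targets, -0.03 for 12 of 16 genes of the unfolded protein response, 0.08 for 6 of 13 heat shock chaperones, 0.002 for 16 of 23 S phase genes, -0.03 for 16 of 21 genes of G2 and mitosis and -0.05 for 10 of 23 genes of cyclic AMP signalling. Among them the chaperone Calr stood at 317 FPKM with chlorpyrifos, at 191 to 293 FPKM in the other exposed libraries and at 212 FPKM in control (0.58). The disulfide isomerase Pdia6 stood at 43.0 FPKM with chlorpyrifos, at 42.8 to 105 FPKM in the other exposed libraries and at 72.6 FPKM in control (-0.74). Heme oxygenase, Hmox1, stood at 26.6 FPKM with chlorpyrifos, at 19.05 to 31.0 FPKM in the other exposed libraries and at 19.8 FPKM in control (0.41).

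No used cell type marker differed 2-fold, except Syt1 among the synaptic genes. Of 19 astrocyte markers 5 could be used, 1 higher and 4 lower with a median of -0.11, beside -0.17 to 0.07 in the other exposed libraries. Their summed level was 238.5 FPKM with chlorpyrifos, 213.2 to 269.5 FPKM in the other exposed libraries and 256.4 FPKM in control. Hepacam, an astrocyte adhesion gene, stood at 0.70 FPKM with chlorpyrifos, at 0.86 to 1.61 FPKM in the other exposed libraries and at 1.10 FPKM in control (-0.30). The glutamine synthetase gene Glul stood at 137.2 FPKM with chlorpyrifos, at 122.5 to 157 FPKM in the other exposed libraries and at 148.5 FPKM in control (-0.11). The start total of Gfap, the defining astrocyte filament, was listed at 0 with chlorpyrifos, at 0 with carbaryl and deltamethrin, at 0.678 FPKM with DDT, 0.476 with rotenone and 0.632 with imidacloprid, and at 0.638 FPKM in control. Aqp4 and S100b were listed at 0 with chlorpyrifos and in control.

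Of 14 neuronal markers 6 could be used, 3 higher and 3 lower with a median of 0.01, and of 20 synaptic genes 13, with 8 higher and 5 lower and a median of 0.06. Of 15 progenitor markers 8 could be used, 3 higher and 5 lower with a median of -0.03. Sox2 stood at 20.9 FPKM with chlorpyrifos, at 16.4 to 28.3 FPKM in the other exposed libraries and at 24.7 FPKM in control (-0.23). Dcx, a microtubule gene of young neurons, stood at 23.3 FPKM with chlorpyrifos, at 22.7 to 27.0 FPKM in the other exposed libraries and at 26.4 FPKM in control (-0.17). Of the oligodendrocyte lineage 2 of 14 could be used, Ptprz1 at 96.5 FPKM with chlorpyrifos and 95.9 FPKM in control (0.01) and Mbp at 1.26 FPKM and 1.42 FPKM (-0.10). Mesenchymal markers, for cells outside the neural lineage, had 8 of 10 used with a median of 0.04 and a summed level of 31.7 FPKM with chlorpyrifos, 28.7 to 41.6 FPKM in the other exposed libraries and 31.5 FPKM in control. No endothelial, epithelial, microglia or blood marker could be used.

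**Figure D4:**
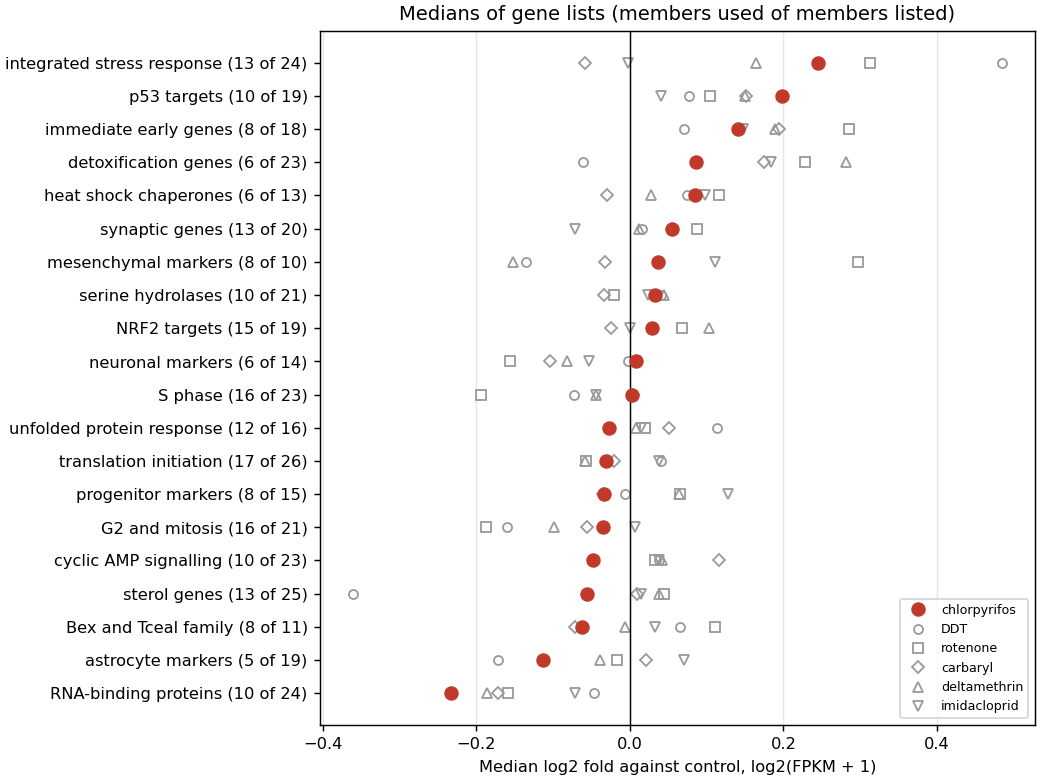
Median log2 fold against control (x axis, log2(FPKM + 1) scale) of the 20 gene lists with at least 5 used members (y axis, members used of members listed); the filled point is chlorpyrifos and the open symbols are the 5 other exposed libraries. The integrated stress response is highest with chlorpyrifos at 0.25 and RNA-binding proteins lowest at -0.23, and for the stress response DDT and rotenone lie above chlorpyrifos.

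The share of FPKM that carries one form of an event was compared separately from the gene's level. Of 45517 shares with a mean total of at least 5 FPKM, 4676 (10.3%) differed by 20 percentage points or more between chlorpyrifos and control, 2334 higher and 2342 lower. By class the share that differed was 12.2% for single skipped exons, 8.9% for retained introns, 9.98% for transcript starts, 6.29% for transcript ends and 11.2% for alternative exon ends. The other exposed libraries had 11.74% to 12.48%, 8.03% to 9.58%, 9.49% to 10.04%, 5.86% to 6.7% and 10.39% to 11.11% of the same classes. In Ccnd3, cyclin D3, the start at chromosome 17, 47593436 to 47593852 held 97.8% of the gene's start total with chlorpyrifos, 5.4% to 99.29% in the other exposed libraries and 0.17% in control, on totals of 36.1 FPKM with chlorpyrifos and 36.6 FPKM in control. That start was near 0 with imidacloprid too and high in the other 4 exposed libraries.

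With a total of at least 5 FPKM in every library, 38314 shares remained. Of these 432 (1.13%), in 265 genes, had chlorpyrifos 20 points or more beyond all 6 other libraries. The other exposed libraries had 424 to 501 such shares and control 508. Single skipped exons gave 71 of the 432, 1.31% of 5434, with 21 above and 50 below the other libraries. The split was 32 to 41 above and 31 to 45 below in the other exposed libraries and 36 above and 48 below in control. A length that is a multiple of 3 was found for 43 of the 71 exons (60.6%), beside 50.1% of all 5434. The same percentage was not computed for the other libraries, so it cannot be called particular to chlorpyrifos.

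Of the 12 skipped exons farthest from the other libraries, 10 matched coding exons of GENCODE M21 transcripts on GRCm38. The 7 that the results turn on are printed to show what was gained or lost. Capitals mark the exon and lower case the flanking 20 bases of the exons before and after it, on the transcript strand. They lie at chr4:132672896-132673032 (plus) and chr4:132661895-132661938 (plus) in Eya3, chr12:111251130-111251204 (plus) in Traf3, chr11:32253875-32253949 (minus) in Nprl3, chr9:65688821-65688906 (plus) in Oaz2, chrX:7800536-7800583 (plus) in Gripap1 and chr5:147466936-147467097 (plus) in Pan3.
Eya3, 137 bases: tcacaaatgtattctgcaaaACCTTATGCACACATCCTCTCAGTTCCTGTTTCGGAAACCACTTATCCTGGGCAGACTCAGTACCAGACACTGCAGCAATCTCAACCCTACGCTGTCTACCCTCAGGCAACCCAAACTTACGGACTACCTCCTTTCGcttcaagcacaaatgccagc
Eya3, 44 bases: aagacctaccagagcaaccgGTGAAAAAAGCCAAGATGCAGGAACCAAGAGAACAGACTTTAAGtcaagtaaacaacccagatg
Traf3, 75 bases: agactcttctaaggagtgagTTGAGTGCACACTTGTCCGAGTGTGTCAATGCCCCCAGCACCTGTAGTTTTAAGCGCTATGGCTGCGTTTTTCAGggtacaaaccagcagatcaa
Nprl3, 75 bases: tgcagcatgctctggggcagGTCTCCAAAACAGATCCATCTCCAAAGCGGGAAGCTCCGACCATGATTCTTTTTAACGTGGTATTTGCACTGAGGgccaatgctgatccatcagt
Oaz2, 86 bases: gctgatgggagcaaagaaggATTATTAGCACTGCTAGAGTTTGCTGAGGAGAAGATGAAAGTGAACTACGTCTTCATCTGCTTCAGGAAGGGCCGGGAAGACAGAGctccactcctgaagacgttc
Gripap1, 48 bases: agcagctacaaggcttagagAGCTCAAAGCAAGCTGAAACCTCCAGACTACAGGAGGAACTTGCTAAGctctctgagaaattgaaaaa
Pan3, 162 bases: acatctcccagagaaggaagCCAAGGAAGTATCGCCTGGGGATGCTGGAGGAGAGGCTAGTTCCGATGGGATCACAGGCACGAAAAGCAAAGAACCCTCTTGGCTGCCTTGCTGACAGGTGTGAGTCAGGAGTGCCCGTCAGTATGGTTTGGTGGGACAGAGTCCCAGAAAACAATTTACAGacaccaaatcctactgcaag

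Eya3 encodes a transcriptional coactivator with phosphatase activity. Its exon of 137 bases was present in 8.26% of the FPKM with chlorpyrifos and in 100% in the other 6 libraries, on a total of 11.1 FPKM with chlorpyrifos, 8.1 to 9.6 FPKM in the other exposed libraries and 9.3 FPKM in control. Its exon of 44 bases was present in 9.37% with chlorpyrifos and in 100% in the other 6 libraries. Neither length is a multiple of 3. The gene's level from starts and ends was 7.21 FPKM with chlorpyrifos, 8.17 to 9.51 FPKM in the other exposed libraries and 9.29 FPKM in control (log2 fold -0.33). The exon total of 11.1 FPKM with chlorpyrifos went the other way, above the 9.3 FPKM in control, so the direction of the gene's level is uncertain.

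Traf3, an adaptor of TNF receptor family signalling, had its exon of 75 bases present in 24.2% with chlorpyrifos, in 98.6% with DDT and in 100% in the other 5 libraries. Nprl3, a subunit of the GATOR1 complex that restrains mTORC1, had its exon of 75 bases present in 28.8% with chlorpyrifos, in 100% in the other exposed libraries and in 95.0% in control. Oaz2, an antizyme that limits polyamine synthesis, had its exon of 86 bases present in 45.9% with chlorpyrifos and in 100% in the other 6 libraries, on totals of 26.8 FPKM with chlorpyrifos and 29.1 FPKM in control. The 6 other libraries were nearly alike in these 3 genes, and chlorpyrifos stood apart. Gripap1, a gene of endosome recycling at synapses, had its exon of 48 bases present in 29.7% with chlorpyrifos, in 80.7% to 99.1% in the other exposed libraries and in 99.6% in control. In Pan3, of the PAN2-PAN3 deadenylase, the exon of 162 bases was gained, at 84.1% with chlorpyrifos and 0 in the other 6 libraries, on totals of 5.6 FPKM with chlorpyrifos and 9.5 FPKM in control.

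The other exons of the 12 farthest were in Desi1 (21.8% with chlorpyrifos, 96.4% in control), Glod4 (30.3% and 97.35%), Ppp6r3 (34.6% and 82.8%), Wbp11 (51.4% and 99.5%) and Bag6, a chaperone of membrane proteins (81.7% and 30.1%, on totals of 8.06 FPKM and 21.5 FPKM). Of the 12, 10 were lower and 2 were higher with chlorpyrifos. They were ranked by their distance from the other libraries, so that distance is a description of the choice.

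**Figure D5:**
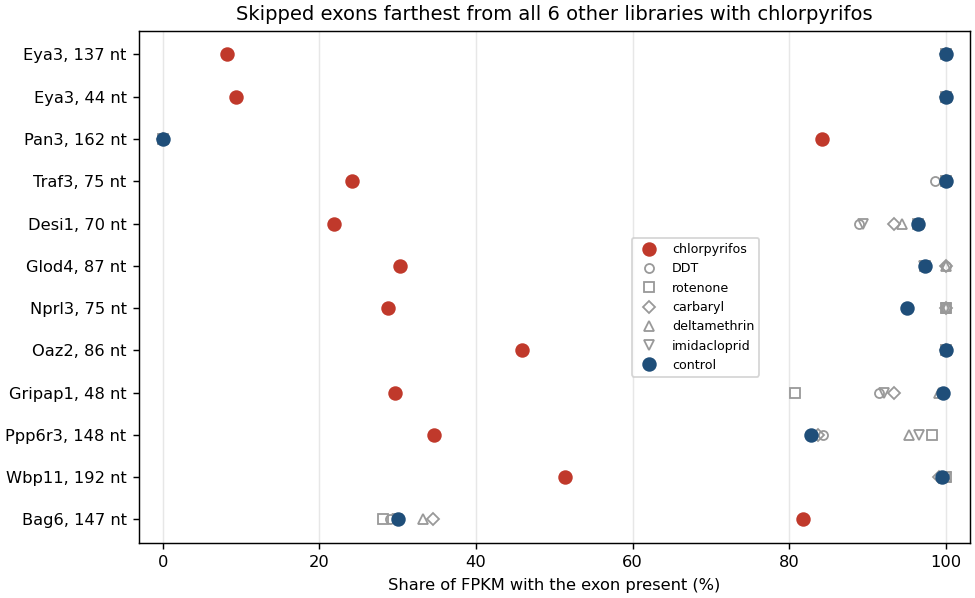
Share of FPKM with the exon present (x axis, percent) for the 12 skipped exons farthest from all 6 other libraries with chlorpyrifos (y axis, gene and exon length in nucleotides); each symbol is 1 library. Chlorpyrifos is below the others for 10 exons, such as Eya3 at 8.26% against 100%, and above them for Pan3 and Bag6.

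Alternative exon ends gave 81 shares beyond all 6 other libraries, 1.22% of 6646, in 45 genes. The same count was 78 to 111 for the other exposed libraries and 86 for control. Slc4a7, a sodium bicarbonate cotransporter, has a coding exon with the same start and 2 listed ends on chromosome 14, at chr14:14739725-14739913 and chr14:14739725-14739874 (plus strand). The longer form of 189 bases held 100% of the FPKM of the pair with chlorpyrifos, 20.9% to 43.4% in the other exposed libraries and 30.7% in control, on totals of 7.9 FPKM with chlorpyrifos and 9.0 FPKM in control. Both forms have a length that is a multiple of 3, and their sequences are given with the exon in capitals and the flanking 20 bases in lower case.
Slc4a7, 189 bases: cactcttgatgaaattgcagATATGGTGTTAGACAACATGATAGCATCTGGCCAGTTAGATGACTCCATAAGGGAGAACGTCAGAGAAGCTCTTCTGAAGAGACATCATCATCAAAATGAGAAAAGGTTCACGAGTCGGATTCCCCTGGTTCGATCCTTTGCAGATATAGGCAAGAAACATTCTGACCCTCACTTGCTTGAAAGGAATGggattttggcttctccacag
Slc4a7, 150 bases: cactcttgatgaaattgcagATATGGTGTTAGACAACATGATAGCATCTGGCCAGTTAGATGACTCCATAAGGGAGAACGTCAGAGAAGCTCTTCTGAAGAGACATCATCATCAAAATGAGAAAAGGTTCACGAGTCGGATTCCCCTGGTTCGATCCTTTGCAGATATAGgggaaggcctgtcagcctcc

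Mdm2 had an exon form of 131 bases (chromosome 10, 117709654 to 117709784) at 48.25% with chlorpyrifos, at no more than 0.01% with any other insecticide and at 0.14% in control. The form of 85 bases that starts at 117709700 took the rest. Taf15, an RNA-binding protein, had a form of 316 bases at 83.1% with chlorpyrifos and 0 in the other 6 libraries. Smg9, of nonsense-mediated decay, had the form of 83 bases at 49.3% with chlorpyrifos and 0 in the other 6 libraries.

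Retained introns gave 10 shares beyond all 6 other libraries, 0.663% of 1508, with 8 above and 2 below. The same Ewsr1 intron of 534 bases was counted in both directions, under different exon patterns. Under the shorter pattern it was retained in 80.3% with chlorpyrifos, 0 to 23.45% in the other exposed libraries and 0 in control. Under the longer pattern retention was 0 with chlorpyrifos, 56.75% to 100% in the other exposed libraries and 100% in control. The same count was 9 to 19 for the other exposed libraries and 16 for control. In Rgl2, an exchange factor for Ral GTPases, an intron of 259 bases was retained in 68.7% of the FPKM with chlorpyrifos and in 0 in the other 6 libraries. In Nlgn3, a synaptic adhesion gene, an intron of 348 bases was retained in 33.5% with chlorpyrifos and 0 in the other 6. In Casc3, of the exon junction complex, an intron of 1887 bases was retained in 30.4% with chlorpyrifos and 0 in the other 6. In Stard7, a phosphatidylcholine transfer gene, retention was 45.9% with chlorpyrifos, 0 to 24.3% in the other exposed libraries and 6.55% in control.

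Transcript starts gave 198 shares beyond all 6 other libraries, 1.14% of 17295, in 129 genes. The same count was 184 to 218 for the other exposed libraries and 241 for control. Rasa1, which turns off Ras, had its start at chromosome 13, 85289107 to 85289130 at 68.15% of the start total with chlorpyrifos and 0 in the other 6 libraries, on totals of 27.4 FPKM with chlorpyrifos, 13.2 to 15.2 FPKM in the other exposed libraries and 17.4 FPKM in control. Lrrc8d, a subunit of the volume-regulated anion channel, had its start at chromosome 5, 105700789 to 105701085 at 77.6% with chlorpyrifos, 0 to 10.7% in the other exposed libraries and 12.6% in control. Igf2, a growth factor, had its start at chromosome 7, 142657388 to 142657496 at 81.5% with chlorpyrifos, 10.49% to 23.27% in the other exposed libraries and 15.01% in control. Klf12, a transcription factor, had its start at chromosome 14, 100284531 to 100284679 at 15.05% with chlorpyrifos, 81.05% to 95.59% in the other exposed libraries and 90.7% in control. These 4 genes, like the other shares named as beyond all 6 libraries, were chosen for that distance, which therefore describes the choice. In Xpo1, the nuclear export receptor, a start that was not matched to the annotated first exons of a single gene held 88.8% with chlorpyrifos. It held 0 in the other 6 libraries.

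Transcript ends gave 36 shares beyond all 6 other libraries, 0.768% of 4686, in 25 genes. The same count was 17 to 39 for the other exposed libraries and 42 for control. Acat1, a mitochondrial thiolase, kept the outer position of its last exon, at chromosome 9, 53580522, and differed in where that exon began. The form of 373 bases, which was not matched to the annotated last exons of a single gene, held 99.4% with chlorpyrifos and 0 in the other 6 libraries. The annotated form of 2144 bases held 0.6% with chlorpyrifos and 100% in the other 6. The end total of Acat1 was 49.8 FPKM with chlorpyrifos, 29.1 to 33.8 FPKM in the other exposed libraries and 23.7 FPKM in control.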

How the data were processed

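Total RNA of 7 libraries, 1 per group, was sequenced. Per the submitters' processing notes, HISAT2 2.0.1, cutadapt 1.9.1 and bcl2fastq 2.17.1.14 were used, with the build GRCm38. The sources used here do not name the tool behind the deposited FPKM. The authors deposited FPKM per transcript-structure event and list only values above 0, per the file headers, with the lowest at 1e-06. A form that is not listed counts as 0.

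Repeated lines (5388 to 5620 per library) were dropped. Genes follow the identifier deposited with each event. It named another gene than the GENCODE M21 annotation for 4.86% of matched start and end events. Start and end totals had to agree within 0.3 on the log2 scale. The pseudocount was 1 FPKM. A share is the FPKM of a form over that of it and its alternatives. Members and lists were chosen with earlier results of these data known. Named are the 12 highest and 12 lowest folds at a mean of at least 5 FPKM and genes 2-fold beyond all 6 others. Only some list members and some of the shares farthest from control are named, not always those with the largest change. The shares farthest from all others, at a total of 5 FPKM in every library, were chosen after their values were seen. Python 3.11.15 with pandas 2.3.3 was used, and the steps were tested on simulated data. Alternatives covered pseudocount, filters, scaling, gene assignment and the library compared with.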

Additional observations from a re-analysis of the deposited data

How the results depend on the processing

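The 101 genes at 2-fold were 78 to 131 in 6 settings (no filter on low values, a mean of at least 5 FPKM, scaling to the same median ratio, start totals alone, end totals alone and genes from the annotation). They were 198 with a pseudocount of 0.1 FPKM, 34 with 5 FPKM and 193 with no agreement filter. Against the median of the 6 other libraries they were 56, and 39 of these were among the 101. Against the median of the 5 other exposed libraries, an alternative chosen after seeing the data, they were 61, and 32 were among the 101. The 9 genes 2-fold beyond all 6 other libraries were 24 and 4 with pseudocounts of 0.1 and 5 FPKM, 14 with no filter on low values, 18 with no agreement filter, 18 with start totals alone, 17 with end totals alone, 15 with genes from the annotation and 41 at 1.5-fold, the last added after seeing the data. Of 20 list medians 5 were at least 0.1 from 0, against 3 with a pseudocount of 5 FPKM and 2 against the median of the 5 other exposed libraries. The 6452 events were 2364 with a pseudocount of 5 FPKM and 2839 at a mean of at least 5 FPKM. The 4676 shares were 9385 at 10 percentage points and 8763 at a mean total of at least 1 FPKM.

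Directions turned in these cases. The astrocyte median was 0.0153 with no agreement filter, and the immediate early median -0.019 against the median of the 5 other exposed libraries. Against the median of the 6 other libraries the log2 folds were -0.0705 for Hras, -0.0844 for Nipa2 and -0.1287 for Syt1. Against that of the 5 other exposed libraries they were -0.10 for Hras, -0.11 for Nipa2, -0.15 for Syt1 and -0.10 for Commd6. Shares against the median of the 6 other libraries differed by -0.3 points for an Ewsr1 exon, 1.4 for a Uba1 exon, 7.78 for Ddx11 introns, -0.99 for a Tarbp2 exon and -0.01 for a Cox7b start. The causes were not tested. No paired analysis was possible because each group is 1 library. For the same reason no replicate could be left out.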
